A study of Mus musculus with 23 samples.

Results

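Primary mammary tumours of mice that received Anakinra together with doxorubicin and zoledronic acid (ADZ) were compared with tumours of mice that received doxorubicin and zoledronic acid without it (DZ). The comparison took the 6 ADZ and the 6 DZ tumours, 12 of the 23 tumours in the series, and all 770 gene rows of the panel, that is 750 endogenous and 20 reference genes. All mice were female C57BL/6J animals, aged 6 to 8 weeks when the E0771 luc2 GFP mammary carcinoma cells, a bone-homing line, were placed in the mammary duct. Of 8 mice randomised to each arm, both arms were given doxorubicin at 2 mg/kg weekly by the intravenous route and, 24 h later, zoledronic acid at 100 µg/kg weekly under the skin, from day 9 until the cull on day 23. The ADZ arm also received Anakinra at 1 mg/kg daily under the skin. Tumour RNA (150 ng, at a concentration of 50 ng/µl) was bound to the barcoded probes of the nCounter panCancer mouse immune panel, and values are given as log2 of the normalized count. The study describes the DZ tumours as coming from separate animals but does not say this of the ADZ tumours, so that p-values measure the spread between tumours.

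Anakinra is a recombinant form of the natural antagonist of the interleukin-1 (IL-1) receptor, and keeps both IL-1α and IL-1β from their signalling receptor, IL1R1. That receptor pairs with its accessory chain, passes the signal through MyD88, the IRAK kinases and TRAF6, and frees the transcription factor NF-κB, which turns on cyclooxygenase-2, IL-6 and the CXC chemokines that attract neutrophils. Doxorubicin, an anthracycline, poisons topoisomerase II, and zoledronic acid, a bisphosphonate, blocks the mevalonate pathway in osteoclasts and macrophages. The question put to these tumours was how the immune profile under doxorubicin and zoledronic acid differs once IL-1 is blocked as well.

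The gene counts recovered per tumour ran from 882537 to 1674738 in DZ (median 1051853) and from 895759 to 1503473 in ADZ (median 1298589). The background of a tumour was set at 2 SD above the mean of the negative-control probes, and averaged 4.87 in DZ and 4.67 in ADZ on the log2 scale. Between 115 and 182 genes lay at or below it in DZ tumours, and between 107 and 168 in ADZ tumours. Pairs of the 12 tumours correlated at 0.933 to 0.992 across genes. Since whole tumours were measured, fewer cells of a type and less RNA per cell cannot be told apart.

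No gene passed the test. With limma fitted on all 23 tumours, 0 of 770 genes (0.0%) had an adjusted p under 0.05, and the smallest adjusted p was 1.0. At an unadjusted p under 0.05 there were 8 genes (1.04%) with lower values in ADZ and 0 (0.0%) with higher values. They were Ccr1, Klra3, Itga2b, Ptgs2, Il18rap, Arg1, Thbs1 and Nlrp3. Chance alone gives on average a share of about 0.05 of genes at that p, so that the 8 genes are no excess. For 0 genes (0.0%) were the ADZ and DZ tumours free of overlap, and for 25 genes all 6 ADZ tumours lay below the DZ mean. The 95% interval of a gene's difference reached a median of 0.57 log2 units to either side, so that differences smaller than this could not be told from none for a typical gene. Only Arg1, Cxcl3 and Ppbp differed by 2-fold or more, all with the lower mean in ADZ.

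The shift was broad and small. The median gene was 0.11 log2 units lower in ADZ, and 553 of 770 genes (71.8%) had the lower mean there. That median ran from −0.17 without DZ2 to −0.03 without ADZ3, and was −0.04 without DZ1. The median of the panel in a tumour was 8.10 ± 0.16 in ADZ and 8.31 ± 0.28 in DZ (SD, n = 6), a difference of −0.20 (exact permutation test, two-sided, p = 0.156 over 924 splits). These values are relative to the 20 reference genes, to which the authors scaled each tumour and which differed by a median of −0.0044. The scaling factor ran from 0.76 to 1.57 in DZ and from 0.83 to 1.45 in ADZ. Panel medians were highest in DZ6 and DZ1 (8.64 and 8.58, factors 1.31 and 1.57). They were lowest in ADZ3 and DZ2 (7.81 and 7.99, factors 0.83 and 0.76). ADZ1 and DZ4, with factors of 1.45 and 1.32, were at 8.20 and 8.15. Whether the shift comes from the scaling was not tested. With each tumour recentred on its panel median, 4 genes were higher and 2 lower in ADZ at an unadjusted p under 0.05, and the median gene moved from −0.11 to 0.10. The genes with the lower mean in ADZ were then 250 of 770. Recentring shifts every gene's difference upward by the same 0.20, so that lists near 0 become mostly higher in ADZ and lists below 0 move towards it.

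Ccr1, a receptor for CC chemokines on monocytes, macrophages and neutrophils, had the smallest p. Its values ran from 9.09 through a median of 9.35 to 9.65 in DZ, and from 8.35 through 8.83 to 9.42 in ADZ. In 5 of 6 ADZ tumours the value was below every DZ tumour, and ADZ4 was the exception. The difference was −0.54 log2 units (SE 0.17, 95% interval −0.90 to −0.18), a ratio of 0.688 with an adjusted p of 1.0 (limma). Ccr1 stayed under an unadjusted p of 0.05 with each of the 12 tumours left out in turn, at differences of −0.66 to −0.45. Recentring on the panel median gave −0.34 and ended that call.

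**Figure D1:**
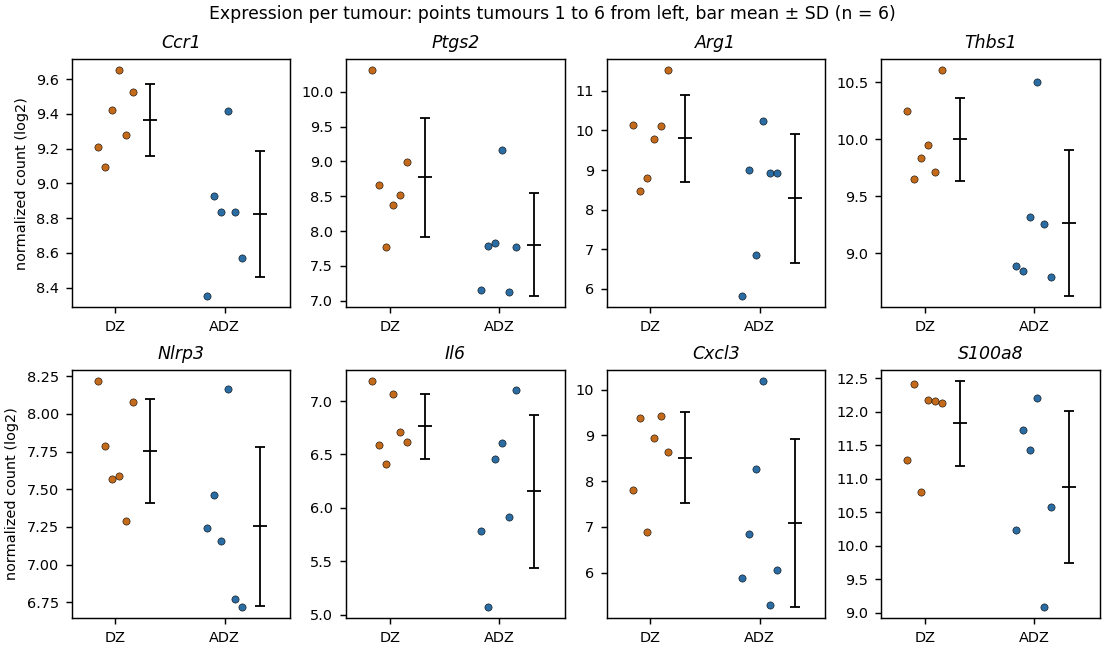
Normalized count (log2) of Ccr1, Ptgs2, Arg1, Thbs1, Nlrp3, Il6, Cxcl3 and S100a8 in the 6 DZ and 6 ADZ tumours. Points are tumours 1 to 6 from left to right within a group and bars are mean ± SD. The groups overlap in every panel, and the highest ADZ tumour is ADZ4 in all but Il6, where it is ADZ6.

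Arg1 and Ptgs2 are enzymes that suppressive myeloid cells use. Arg1 encodes arginase-1, which breaks down the arginine that T cells need. It ran from 8.46 through 9.95 to 11.52 in DZ and from 5.82 through 8.93 to 10.23 in ADZ. The lowest values were those of ADZ1 and ADZ3, at 5.82 and 6.85, and the other 4 ADZ tumours lay within the DZ range. The difference was −1.51 (SE 0.68, 95% interval −2.93 to −0.09), and without ADZ1 it was −1.01. Ptgs2 encodes cyclooxygenase-2, which starts prostaglandin synthesis. It ran from 7.77 through 8.59 to 10.31 in DZ and from 7.13 through 7.78 to 9.17 in ADZ. The highest DZ value came from DZ1 and the highest ADZ value from ADZ4. The Ptgs2 difference was −0.97 (SE 0.42, 95% interval −1.83 to −0.10) and became −0.66 without DZ1. The adjusted p was 1.0 for both genes.

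Thbs1 encodes thrombospondin-1, a matrix protein of platelets and stroma that restrains vessel growth. Its values were 9.65 to 10.60 in DZ (median 9.89) and 8.79 to 10.50 in ADZ (median 9.08). All ADZ tumours but ADZ4 were below the DZ range. The difference was −0.73 (SE 0.34, 95% interval −1.43 to −0.03). Nlrp3, the sensor of the inflammasome that matures IL-1β, had values of 7.29 to 8.22 in DZ (median 7.69) and 6.72 to 8.16 in ADZ (median 7.20). Here 4 ADZ tumours lay below every DZ tumour, while ADZ4 was close to the highest DZ value. The Nlrp3 difference, −0.30 after recentring, was −0.50 (SE 0.24, 95% interval −1.0015 to −0.0017). Il18rap, the accessory chain of the IL-18 receptor, had narrow ranges. It ran from 8.70 to 9.19 in DZ and from 8.27 to 8.86 in ADZ, a difference of −0.31 (SE 0.14, 95% interval −0.60 to −0.02). It was −0.11 after recentring and −0.15 after quantile normalization, neither under an unadjusted p of 0.05, and with each of the 12 tumours left out in turn it stayed under that p in 7 fits.

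The remaining 2 of the 8 genes were at the limit of detection. Klra3, an NK cell receptor of the Ly49 family whose members are close in sequence, was at or below background in all 6 DZ and all 6 ADZ tumours. Itga2b, the platelet integrin αIIb, was at or below it in 4 DZ and 5 ADZ tumours. Their differences were −0.75 and −0.70, and −0.20 and −0.25 once values under the background were raised to it. The mean background itself differed by −0.20 between the groups.

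Of the 30 genes with the smallest p, 29 had the lower mean in ADZ. The exception was Masp1, a protease of the lectin pathway of complement, at 3.30 to 5.24 in DZ and 4.21 to 5.29 in ADZ, a difference of 0.58 (SE 0.32, 95% interval −0.08 to 1.23). It was at or below background in 5 DZ and 2 ADZ tumours, and raising values to the background left a difference of 0.01. Of the other genes, Clec4n (dectin-2, a fungal lectin receptor) differed by −0.42 (−0.22 after recentring), Msr1 (a scavenger receptor) by −0.33 (−0.12), Cd84 by −0.52 (−0.31), Ly96 (MD-2, the partner of TLR4) by −0.22 (−0.014) and Cd14 (the lipopolysaccharide co-receptor) by −0.48 (−0.27). The receptor chains of IL-4 and IL-13 were also among them, with Il4ra at −0.44 (−0.24 after recentring) and Il13ra1 at −0.45 (−0.24). ADZ4 had the highest ADZ value in 13 of the 29 genes and lay above the DZ mean in 11, against 0 to 3 in the other 5 ADZ tumours.

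**Figure D2:**
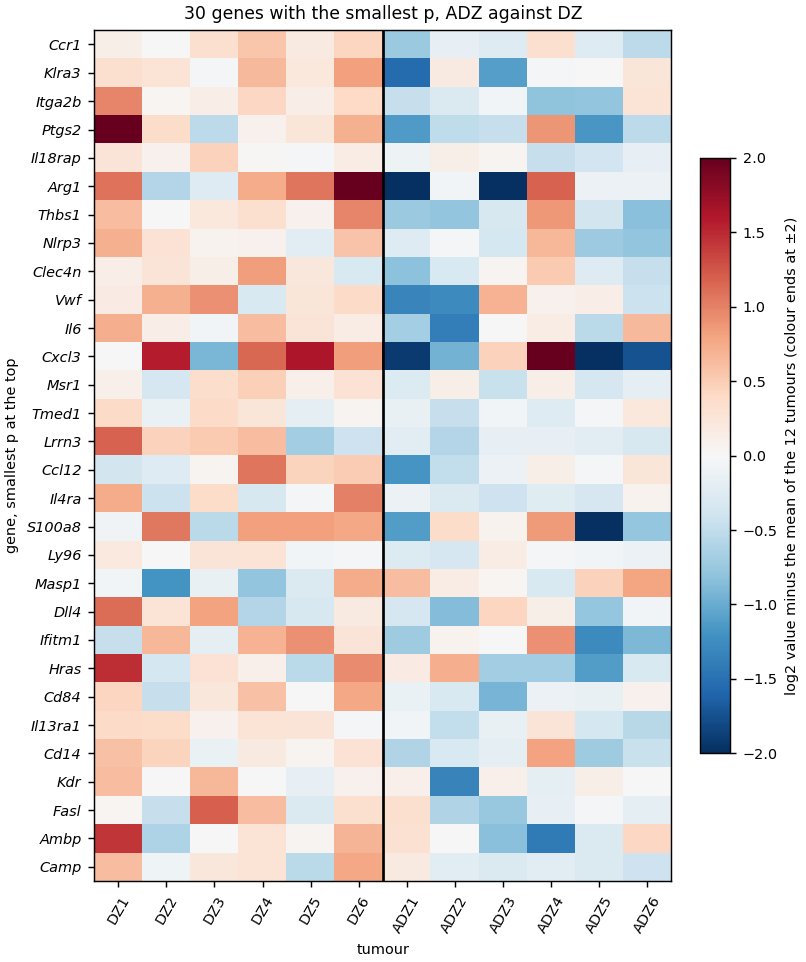
The 30 genes with the smallest p (rows) in the 12 tumours (columns), coloured by log2 value minus the mean of the 12 tumours, with the colour ending at ±2. Columns of the ADZ tumours are mostly blue apart from ADZ4, which is red in many rows, among them Ptgs2, Arg1, Thbs1, Cxcl3 and S100a8. ADZ4 lies above the DZ mean in 11 of the 29 genes with the lower mean in ADZ. Masp1 is the row that runs the other way.

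The IL-1 and IL-18 family and its inflammasome were represented by 14 genes, of which 13 had the lower mean in ADZ, against 71.8% of all genes. Of the 14, 0 passed the adjusted threshold and 2 (Nlrp3 and Il18rap) were under an unadjusted p of 0.05, against 8 of all 770 genes (1.04%). The median difference of the 14 genes was −0.22 against −0.11 for all genes. After recentring it was −0.01 against 0.10, with 7 of the 14 genes lower against 250 of 770. Of the ligands, Il1b ran from 10.34 through 10.85 to 11.67 in DZ and from 9.79 through 10.59 to 11.91 in ADZ. Il1a was much lower on this scale, at 4.98 to 6.94 in DZ and 4.58 to 7.25 in ADZ, although levels of different genes also depend on their probes. Il1b differed by −0.23 (SE 0.38), by −0.026 after recentring and by −0.48 (without ADZ4) to −0.052 (without ADZ6) with a tumour left out. Il1a differed by −0.26 (SE 0.42), by −0.056 after recentring and by −0.57 (without ADZ4) to −0.032 (without ADZ5) with a tumour left out. For Il1a and Il1b the ADZ range contained the whole DZ range, with ADZ4 the highest of all 12 tumours.

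The receptors of IL-1 had lower means in ADZ, with intervals that included 0. Il1r1, the signalling receptor that Anakinra occupies, was 10.71 to 11.42 in DZ and 10.03 to 11.24 in ADZ, with 3 ADZ tumours under every DZ value and a difference of −0.32 (SE 0.21, 95% interval −0.75 to 0.12). The Il1r1 difference was −0.18 without ADZ1 and −0.11 after recentring. Its accessory chain Il1rap differed by −0.20 (SE 0.21), and the decoy receptor Il1r2, which binds IL-1 without signalling, by −0.29 (SE 0.29, or −0.48 without ADZ4 and −0.11 without ADZ6). Il1rn, the mouse's own antagonist gene, whose product acts as Anakinra does, differed by −0.08 (SE 0.32), with a 95% interval of −0.74 to 0.58. The drug itself is a protein and is not read by these probes. The ligand gene Il18 was at −0.01 (SE 0.15) and its receptor Il18r1 at −0.17 (SE 0.34), while the IL-33 receptor Il1rl1 was at −0.15 (SE 0.23) and the IL-36 receptor Il1rl2 at −0.15 (SE 0.45). Casp1, the protease that cleaves IL-1β and IL-18, was the single member with the higher mean, 0.09 (SE 0.16), and the adaptor Pycard was at −0.34 (SE 0.31). Recentring turned the signs of Il1rn, Il1rap, Il1rl1, Il1rl2, Il18 and Il18r1.

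Below the receptor, the relay lay above the panel median and the genes it drives lay near it. The 28 relay genes, from Myd88 and the IRAK kinases to the NF-κB subunits, had a median difference of 0.03, with 17 higher and 11 lower in ADZ and none outside −0.12 to 0.16, and a median of 0.24 after recentring. Without DZ4 the median was −0.0041. Traf6 was at 0.12 (SE 0.12) and Rela, the p65 subunit, at 0.10 (SE 0.13). Of 20 inflammatory genes under NF-κB control, 19 had the lower mean in ADZ, against 71.8% of all genes. Their median was −0.16, and 1 gene (Ptgs2) was under an unadjusted p of 0.05, against 1.04% of all genes. After recentring, the lower ones were 8 of 20 and the median 0.05, and without ADZ2 the median was −0.09. Il6, the cytokine of fever and the acute phase, ran from 6.41 through 6.66 to 7.19 in DZ and from 5.08 through 6.19 to 7.10 in ADZ. Values under all DZ tumours came from ADZ1, ADZ2 and ADZ5, and ADZ6 was within 0.1 of the highest DZ tumour. Without ADZ2 the Il6 difference was −0.39, and with all tumours it was −0.61 (SE 0.30, 95% interval −1.23 to 0.02). Lif, a cytokine of the same family, differed by −0.28, and Ccl20, at background in 5 DZ and 6 ADZ tumours, by −0.54.

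The neutrophil-attracting CXC chemokines and their receptors were among the groups with the lowest medians, beside the 3 platelet genes, also at −0.70. The platelet median was that of Itga2b, mostly at background, and Ppbp is counted in both lists. With values raised to background the medians were −0.60 for the chemokine list and −0.25 for the platelet genes. Of 8 measured genes in the chemokine list, 5 had the lower mean in ADZ, against 71.8% of all genes. The chemokine median was −0.70, or −0.50 after recentring, with 0 genes under an unadjusted p of 0.05. The median was −0.96 without ADZ4, −0.47 without DZ6 and −0.45 without ADZ5. Which of these lists had the lower median changed with the tumour left out. The platelet genes were lower without DZ4, DZ5, DZ6, ADZ1, ADZ3, ADZ5 or ADZ6 (−0.69 without DZ6 and −0.61 without ADZ5), and the chemokine list without any other tumour. Cxcl3 ran from 6.88 through 8.79 to 9.42 in DZ and from 5.29 through 6.45 to 10.19 in ADZ. In 4 ADZ tumours (ADZ1, ADZ2, ADZ5 and ADZ6) it was below the whole DZ range, while in ADZ4 it was above it. The difference was −1.42 (SE 0.71, 95% interval −2.91 to 0.06), and −2.04 without ADZ4. Cxcl2, the near relative of Cxcl3, ran from 7.35 through 8.67 to 9.14 in DZ and from 5.89 through 7.33 to 9.94 in ADZ, again with ADZ4 above every DZ tumour. Its difference was −0.97 (SE 0.57, 95% interval −2.14 to 0.21), −1.46 without ADZ4 and −0.65 without ADZ1. Ppbp, the platelet chemokine, differed by −1.15 (SE 0.67, 95% interval −2.54 to 0.24), and Cxcr2, the receptor that neutrophils use for these ligands, by −0.80 (SE 0.51, 95% interval −1.85 to 0.25). The Cxcr2 difference was −0.34 without ADZ5. Cxcl5 was at −0.60 (SE 0.70), or −1.02 without DZ2 and −0.18 without DZ6. Cxcl1, named here after its value was seen, as was Cxcl5, did not share the sign, at 6.70 to 8.57 in DZ, 6.43 to 8.36 in ADZ and a difference of 0.08 (SE 0.39).

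Sequence upstream of Cxcl2, Cxcl3 and Il6 is shown because these IL-1 responsive genes are known for NF-κB sites close to the start and had lower means in ADZ. The 120 bases before each RefSeq start are given on the plus strand of GRCm38.p6, with matches to the motif GGGNNTTTCC, searched on both strands, in capitals.
Cxcl2, chr5:90903779-90903898: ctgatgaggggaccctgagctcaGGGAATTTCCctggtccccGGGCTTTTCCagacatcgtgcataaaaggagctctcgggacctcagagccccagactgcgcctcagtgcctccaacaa
Cxcl3, chr5:90785981-90786100: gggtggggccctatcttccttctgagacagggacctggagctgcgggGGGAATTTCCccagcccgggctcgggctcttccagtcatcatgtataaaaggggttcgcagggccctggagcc
Il6, chr5:30012994-30013113: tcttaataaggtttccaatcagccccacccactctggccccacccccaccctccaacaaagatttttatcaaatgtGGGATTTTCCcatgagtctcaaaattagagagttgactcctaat
Cxcl2 held 2 matches and Cxcl3 and Il6 held 1 each, and the first match of Cxcl2 and that of Cxcl3 had the same 10 bases. Of the 30 genes with the smallest p, 21 had a window of 300 bases in the RefSeq table, 250 before and 50 after the start, and 3 of these (Cxcl3, Il6 and Il4ra) held the motif. It was present in 1.63% of all 32851 windows. Its share among the genes of the panel was not counted, so that these numbers give no enrichment. Genes with other differences held the motif too, with a match in the 1 window of Cxcl1 (difference 0.08) and in 2 of 3 windows of Il1rn (difference −0.08). The windows of Ptgs2, S100a8, Ppbp, Ccr1, Nlrp3, Il1a and Il1b held no match. A match describes letters and not a bound site.

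Neutrophil genes lay in the same direction as their chemokines, with Cxcr2 counted in both lists. Of 12 genes, 10 had the lower mean in ADZ, against 71.8% of all genes. Their median was −0.40 (−0.19 after recentring), with 0 under an unadjusted p of 0.05. The median was −0.24 without DZ1 and −0.22 with values raised to background, which 5 of the 12 genes mostly lay under. S100a8, a calcium-binding protein that fills the neutrophil cytosol, ran from 10.81 through 12.15 to 12.41 in DZ and from 9.09 through 11.0004 to 12.20 in ADZ. The lowest 3 tumours of the 12 were ADZ5, ADZ1 and ADZ6. Without ADZ5 its difference was −0.60. With all tumours it was −0.95 (SE 0.52, 95% interval −2.03 to 0.12). Csf3r, the G-CSF receptor, differed by −0.37 (SE 0.31), or −0.24 without ADZ5, and Fpr2, a formyl peptide receptor, by 0.02 (SE 0.30). Granule genes such as Camp and Ctsg were at or below background in all 12 tumours. The neutrophil score, the mean of 4 markers (Csf3r, Fpr2, Ceacam1 and S100a8) centred on the 23 tumours, was 0.18 ± 0.14 in DZ and −0.25 ± 0.44 in ADZ (SD, n = 6). It ran from 0.04 to 0.38 in DZ and from −1.03 to 0.16 in ADZ, so that all 6 ADZ tumours were below the DZ mean, and 3 of the 4 markers had the lower mean. S100a8 had the largest difference of the 4, and Ceacam1 was also in the list of epithelial and tumour cell genes. Without ADZ5 the difference of the score was −0.27, against −0.43 with it. None of the markers was at 0 in these tumours.

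Cxcl2 and Cxcl3 followed S100a8 from tumour to tumour. Over the 12 tumours, Cxcl2 correlated with S100a8 at r = 0.88 (permutation test, p = 5e-05, adjusted 0.000125) and rho = 0.97 (p = 1e-05, the smallest the permutations can give), and Cxcl3 at r = 0.90 (permutation p = 5e-05, adjusted 0.000125) and rho = 0.92 (p = 2e-05). Without ADZ1 and ADZ5, the tumours farthest from the median of S100a8, r was 0.86 and 0.87. Within DZ it was 0.97 for both genes, and within ADZ 0.83 and 0.85. Ppbp correlated at r = 0.70 (permutation p = 0.0112, adjusted 0.0187) and rho = 0.64 (p = 0.0288), but at 0.46 without those tumours and 0.30 within DZ. For Ptgs2 the pooled r of 0.61 (permutation p = 0.0374, adjusted 0.0467; rho 0.73, p = 0.0091) came to 0.32 without the same tumours and −0.01 within DZ. Arg1 reached r = 0.45 (permutation p = 0.148) and rho = 0.41 (p = 0.184). Values of p were adjusted over the 5 relations, and all tumours share the panel and its scaling. The adjustment does not cover the choice of these genes, made with the data known. The pooled r includes the difference between the groups, and no p was computed within a group.

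**Figure D3:**
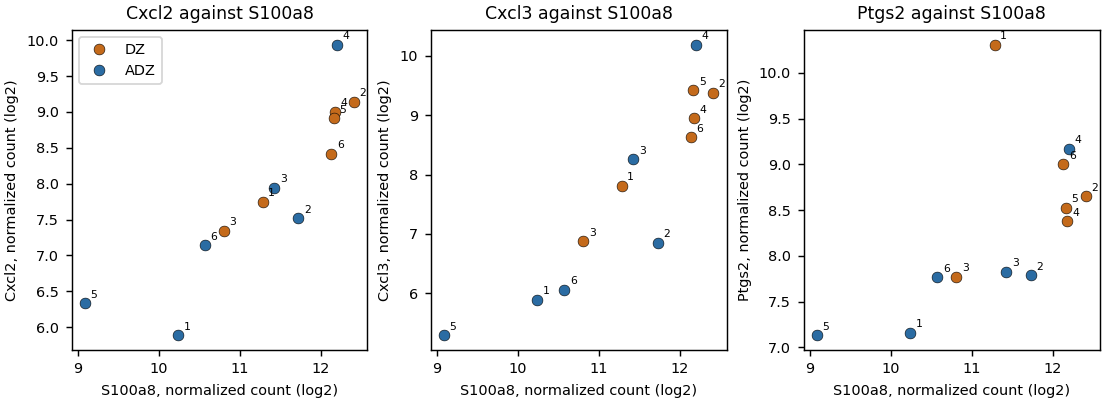
Cxcl2, Cxcl3 and Ptgs2 (y axes) against S100a8 (x axes), all as normalized count (log2), in the DZ and ADZ tumours, each point labelled with its tumour number. Cxcl2 and Cxcl3 climb with S100a8 in both groups (r within DZ 0.97 for both), whereas DZ1 stands above the other tumours in Ptgs2.

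Macrophage genes had the lower mean in ADZ in 17 of 18 cases, with a median of −0.31 (−0.11 after recentring), and the Fc and scavenger receptors in 18 of 18, with a median of −0.30 (−0.09 after recentring, with 14 of 18 lower). Cd163, Mrc1, Msr1 and Marco are counted in both lists. Of all genes, 71.8% had the lower mean, and 250 of 770 after recentring. The macrophage median was −0.57 without DZ2, −0.12 without DZ6 and −0.11 without ADZ3, and that of the Fc and scavenger receptors −0.20 without ADZ3. Arg1 was the only one of either group under an unadjusted p of 0.05, where 1.04% of all genes were lower at that p. Cd163, the haemoglobin scavenger receptor, varied more between tumours than between groups, from 3.06 to 9.74 in DZ and from 2.32 to 8.07 in ADZ (difference −0.79, SE 1.13, or −1.47 without DZ2 and −0.12 without ADZ3). Cd68, a lysosomal glycoprotein of macrophages, was 11.32 to 12.06 in DZ and 11.10 to 11.84 in ADZ (difference −0.17, SE 0.18). Csf1r, the receptor on which macrophages depend, differed by −0.28 (SE 0.44), Csf2rb by −0.47 (SE 0.28), and Fcgr2b, the inhibitory Fc receptor, by −0.24 (SE 0.15). The macrophage score of Cd163, Cd68 and Cd84 was 0.21 ± 0.92 in DZ and −0.29 ± 0.84 in ADZ (SD, n = 6), a difference of −0.49 that was smaller than either SD. It was −0.80 without DZ2, −0.22 without DZ6, −0.19 without ADZ3 and −0.29 after recentring. For mast cells only Ms4a2 of the 4 markers was measured, at or below background in 5 DZ and 6 ADZ tumours, with a difference of −0.28 (SE 0.30). Tpsab1, a mast cell tryptase, differed by −0.44 (SE 0.28).

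CC chemokines had the lower mean in ADZ in 16 of 21 genes (median −0.25, or −0.05 after recentring), and CC and homeostatic receptors in 13 of 15 (median −0.17, or 0.04 after recentring). The share of all genes was 71.8%. The receptor median was −0.39 without DZ2 and −0.06 without DZ1. Ccl12, a monocyte chemoattractant of the mouse, ran from 9.97 through 10.58 to 11.40 in DZ and from 9.15 through 10.26 to 10.57 in ADZ, with all 6 ADZ tumours below the DZ mean (difference −0.49, SE 0.26, 95% interval −1.02 to 0.05). Without ADZ1 the Ccl12 difference was −0.30. Ccl8 differed by −0.70 (SE 0.51) and Ccl7 by −0.36 (SE 0.26), and the Ccl7 receptor Ccr2, which brings monocytes out of the marrow, by −0.43 (SE 0.34). Cxcr4, the receptor for CXCL12, was at −0.33 (SE 0.25).

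Vessel and stromal genes showed the same sign as the myeloid ones. Among genes of endothelium and angiogenesis, 17 of 18 had the lower mean in ADZ, against 71.8% of all genes, with a median of −0.29 (−0.09 after recentring). The mean level of these 18 genes was 7.07 in ADZ1 and 6.93 in ADZ2, against 7.77 to 7.94 in the other 4 ADZ tumours and 7.77 to 8.19 in DZ. Without ADZ2 the median was −0.18 and the difference of the endothelial score was −0.17 in place of −0.33. Vwf, the clotting factor of endothelium and platelets, ran from 6.30 to 7.52 in DZ and from 5.29 to 7.30 in ADZ, where ADZ1, ADZ2 and ADZ6 lay under every DZ tumour (difference −0.70, SE 0.35, 95% interval −1.42 to 0.02). Dll4, a Notch ligand of sprouting tips, differed by −0.49 (SE 0.27), Angpt2 by −0.62 (SE 0.40) and its receptor Tek by −0.53 (SE 0.36). Kdr, the main VEGF receptor, was at −0.40 (SE 0.23) with ADZ2 and at −0.18 without it. Of 12 fibroblast and matrix genes, 11 had the lower mean (median −0.25, or −0.05 after recentring, −0.44 without ADZ6 and −0.13 without DZ6), with Col1a1 at −0.76 (SE 0.92), Fn1 at −0.56 (SE 0.55) and Pdgfrb at −0.26 (SE 0.19). The endothelial score was 0.26 ± 0.29 in DZ and −0.06 ± 0.50 in ADZ, and the fibroblast score 0.23 ± 0.60 and −0.16 ± 0.80 (SD, n = 6).

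**Figure D4:**
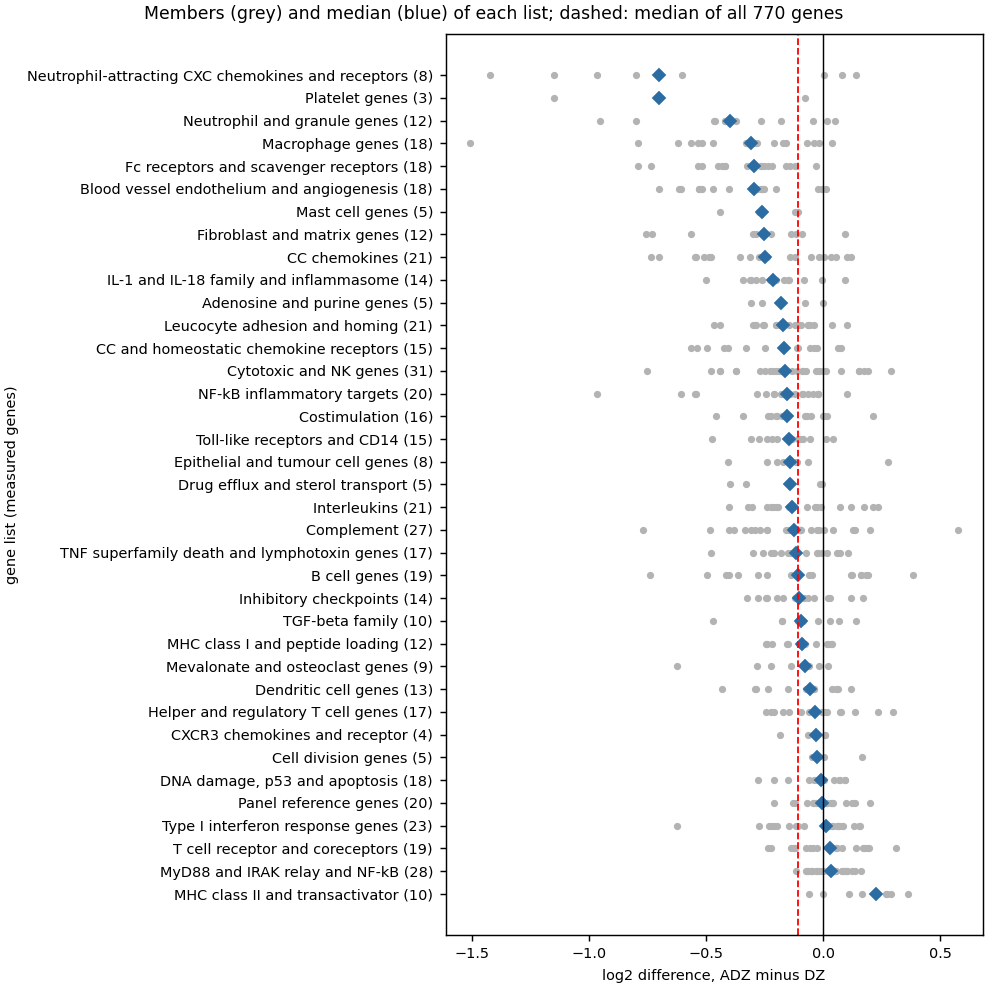
Log2 difference, ADZ minus DZ (x axis), of each member (grey points) and the median (blue diamonds) of 37 gene lists, with the number of measured genes in brackets and the median of all 770 genes as a dashed line at −0.11. The neutrophil-attracting chemokines and the 3 platelet genes lie lowest, both at −0.70, and MHC class II lies highest at 0.22. With values raised to background (not drawn) the platelet median is −0.25 and that of the chemokines −0.60.

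T cell genes depended on the scaling. Of 19 T cell receptor and coreceptor genes, 10 had the higher and 9 the lower mean in ADZ, with a median of 0.03. After recentring 2 of 19 were lower and the median was 0.23, and with a tumour left out the median ran from −0.15 (without ADZ1) to 0.19 (without ADZ3). Cd3e, a chain of the T cell receptor complex, was at −0.03 (SE 0.48), and Cd8a, the co-receptor of cytotoxic T cells, ran from 5.59 to 6.71 in DZ and from 5.44 to 7.25 in ADZ (difference 0.08, SE 0.38). Foxp3, the factor that defines regulatory T cells, ran from 4.86 through 5.54 to 6.27 in DZ and from 4.26 through 5.86 to 6.53 in ADZ (difference 0.13, SE 0.45, 95% interval −0.81 to 1.08). The T cell score was −0.06 ± 0.49 in DZ and −0.03 ± 0.61 in ADZ, and that of CD8+ T cells −0.10 ± 0.33 and −0.03 ± 0.57 (SD, n = 6). Ptprc (CD45, carried by all leucocytes) was 9.34 to 10.79 in DZ and 9.15 to 10.76 in ADZ, a difference of −0.19 (SE 0.39). Of 31 cytotoxic and NK genes, 24 had the lower mean, against 71.8% of all genes. Their median was −0.16 (0.04 after recentring), and 12 of the 31 were mostly at background. That median was −0.28 without DZ2 and −0.05 without DZ1. Fasl, the death ligand of cytotoxic cells, was among these at −0.48 (SE 0.28).

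MHC class II genes were the group with the highest median, 0.22, with 8 of 10 higher in ADZ and 0 under an unadjusted p of 0.05. After recentring the median was 0.43 and 0 of 10 were lower. With a tumour left out it ran from 0.057 (without ADZ1) to 0.48 (without ADZ3), and was 0.066 without DZ2. Cd74, the invariant chain, ran from 12.10 through 12.74 to 14.04 in DZ and from 11.58 through 13.69 to 14.42 in ADZ (difference 0.36, SE 0.55, or 0.15 without ADZ1 and 0.71 without ADZ3). H2-Aa differed by 0.29 (SE 0.57). The lowest tumours for Cd74 were DZ2 and ADZ3, which were also the lowest of their groups for Ptprc. Of the type I interferon response genes, 10 of 23 were lower with a median of 0.01, and 5 of 23 with a median of 0.22 after recentring. With a tumour left out that median ran from −0.13 (without ADZ1) to 0.09 (without ADZ4). In that list Ifitm1 differed by −0.62 (SE 0.35) and Bst2 by −0.22 (SE 0.13). Cxcl9, an interferon-γ induced chemokine, was at 0.01 (SE 0.40). Genes of DNA damage, p53 and apoptosis, pathways that doxorubicin engages, had a median of −0.01 over 18 genes, or 0.19 after recentring.

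**Figure D5:**
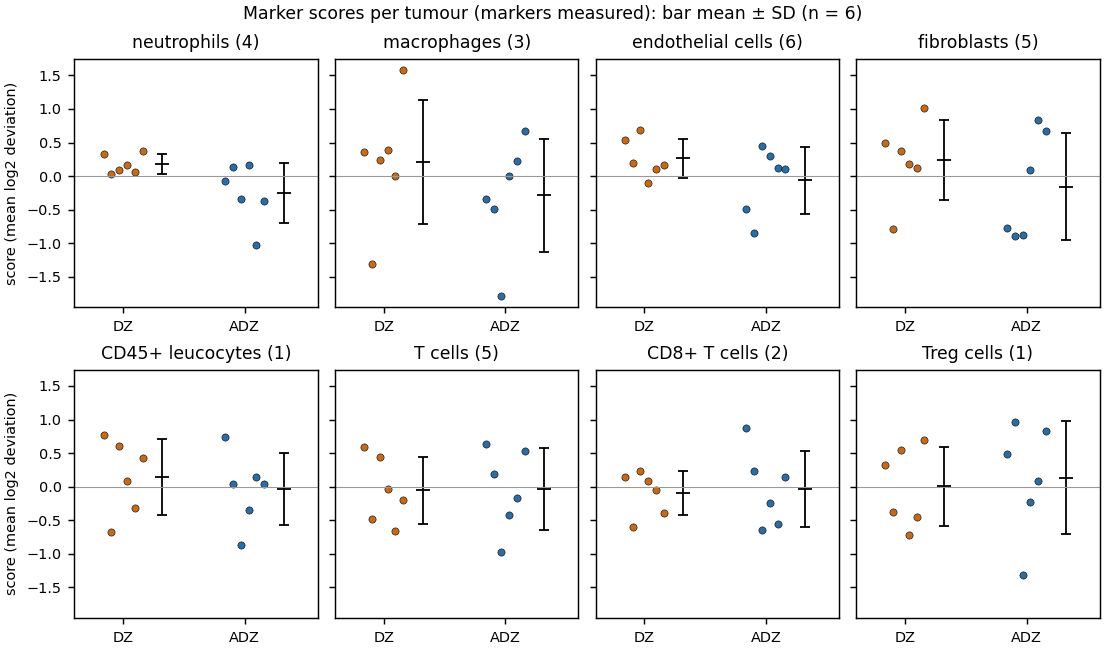
Marker scores (mean log2 deviation of the markers from their mean over the 23 tumours, y axis) for 8 cell types in the 6 DZ and 6 ADZ tumours, with the number of markers measured in brackets and bars giving mean ± SD. Neutrophil scores are 0.04 to 0.38 in DZ and −1.03 to 0.16 in ADZ, and the T cell scores of the groups lie over each other.

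Whether Anakinra acted otherwise on top of doxorubicin and zoledronic acid than alone was tested as an interaction, (ADZ minus DZ) minus (A minus P), with the 5 tumours of Anakinra alone (A) and the 6 of placebo (P). Placebo tumour P4 had a panel median of 9.09, against 7.94 to 8.32 in the other placebo tumours. All A minus P values include P4, and no fit left out an A or P tumour. No gene passed the adjusted threshold (0 of 770, smallest adjusted p 0.996), and 2 genes (0.26%) were under an unadjusted p of 0.05, Il18rap and Lrrn3. That share is below the 0.05 that chance gives on average. Il18rap was at −0.31 for ADZ minus DZ and 0.18 for A minus P, a difference of −0.49 (SE 0.20). Lrrn3, a leucine-rich repeat gene of neurons, was at −0.55 and 0.41, a difference of −0.96 (SE 0.41). Next by p came Itgb4 at −0.55, Cr2 at 1.22 and Ctsg at −0.76, of which Cr2 and Ctsg were at or below background in all 12 tumours. For the genes above, ADZ minus DZ and A minus P were −1.42 and −0.95 in Cxcl3, −0.97 and −0.94 in Cxcl2, −1.51 and −0.75 in Arg1, −0.95 and −0.72 in S100a8, and −0.54 and −0.24 in Ccr1. Of the 30 genes with the smallest p for ADZ minus DZ, 24 also had the lower mean in A than in P, as did 513 of all 770 genes. The B cell list had a median of −0.52 for A minus P, with 19 of 19 lower, and of −0.11 for ADZ minus DZ, with 12 of 19 lower (0.09 without ADZ3). Of these 19 genes, 11 lay mostly at background in the ADZ and DZ tumours. With values raised to background the ADZ minus DZ median was −0.20, the same as the difference of the mean background. In the interaction, 0 genes of the B cell list passed the adjusted threshold.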

How the data were processed

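RNA of 23 primary tumours was counted on the nCounter panCancer mouse immune panel and processed by the authors in nSolver with Advanced Analysis. Each deposited value is on the log2 scale and is the log2 of a probe's count after the authors multiplied all counts of a tumour by 1 factor, set so that the 20 reference genes average the same in each tumour. Dividing out the factor gave whole counts (tolerance 0.05) for all values but 6 listed as exactly 0, of which 3 are in ADZ or DZ tumours and were kept. Whether the authors subtracted background is not given in the sources used here. The 6 positive and 8 negative controls were left out of the tests. Of the 770 symbols, 754 matched RefSeq as written, 2 in another case and 8 through synonyms, and 6 did not match.

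Groups came from the labels. The deposited log2 values entered lmFit and eBayes of limma 3.58.1 under R 4.3.3 (1 mean per group over 23 tumours, two-sided, Benjamini-Hochberg over 770 genes), with no filter on low values. Panel medians were compared by an exact permutation test and correlations by 100000 permutations. Figures used matplotlib, and the test was checked on simulated data. Gene lists (37) and cell markers (19 types) are described by counts and medians, with no test. The genes named are the 30 with the smallest p, the IL-1 family, up to 4 genes of each other list with the smallest p, the markers and the 5 smallest p of the interaction, and any others are named as chosen after their values were seen. Members and lists were chosen with earlier results of these data known. Alternatives were pseudocounts of 1 and 20, minimum means of 20 and 50 normalized counts, values raised to background, recentring on the panel median, quantile normalization, a fit of 12 tumours, an intensity trend, voom on the recovered counts, the replicate number as a block, and each of the 12 ADZ and DZ tumours left out in turn. The labels give no batch.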

Additional observations from a re-analysis of the deposited data

Results flagged for a closer look

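In 7 of the 164 gene and group pairs examined, 2 groups for each of the 82 genes given with values, 1 tumour lay far from the other 5 of its group, where chance flags about 1 in 20. As a set the 7 pairs are no more than that rate gives. In 3 of the 7 pairs the tumour was ADZ4. It held 9.17 for Ptgs2, where the other ADZ tumours were at 7.13 to 7.83, 10.50 for Thbs1 against 8.79 to 9.32, and 9.41 for Cd14 against 7.91 to 8.42. Without ADZ4 the differences of these genes from DZ were −1.24, −0.98 and −0.68. ADZ2 was low for Kdr at 6.66, where the others were at 7.80 to 8.11. ADZ1 was high for Camp at 4.12 against 3.52 to 3.72, below the background. In the DZ group, DZ6 was high for Il1rl1 at 8.40 against 7.23 to 7.66 and low for Cxcl9 at 10.003 against 11.02 to 11.51.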

How the results depend on the processing

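No setting gave a gene an adjusted p under 0.05 for ADZ minus DZ, where the smallest adjusted p was 0.455 (Masp1, quantile normalization). The interaction had 0 such genes under each alternative run on it, including each ADZ and DZ tumour left out in turn, which was added after seeing the data. No A or P tumour was left out, so that the weight of a single tumour such as P4 in A minus P was not tested. The counts at an unadjusted p under 0.05 did move from 0 higher and 8 lower in ADZ. They were 4 and 2 with tumours recentred, 5 and 3 with tumours quantile normalized, and 0 and 5 with voom. With each tumour left out in turn there were 0 to 1 higher and 4 to 23 lower genes, with 23 without ADZ4, 18 without DZ2, 13 each without ADZ3 and DZ5, 5 without ADZ5 and 4 without DZ1. The difference of the panel medians kept its sign, at −0.27 to −0.14 with a tumour left out and −0.15 and −0.11 with the filters at 20 and 50 normalized counts. Whether replicate numbers pair the tumours could not be settled. Deviations of like-numbered ADZ and DZ tumours from their group means correlated at −0.36 to 0.71, above 0.1 in 3 of 6 pairs. The replicate block in the 12 tumours gave 3 higher and 15 lower genes, against 0 and 14 in the fit of 23. The causes of these moves were not tested.

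Of the 82 genes given with values, 66 kept their sign under every alternative run. After recentring, Il1rn became 0.12, Il1rap 0.0022, Il1rl1 0.057, Il1rl2 0.053, Il18 0.20, Il18r1 0.034, Itgb4 0.14, Cd68 0.029, Ptprc 0.014 and Cd3e 0.18. After quantile normalization, Il1rl1 became 0.0076, Il18 0.042, Il18r1 0.033, Itgb4 0.11 and Cd3e 0.15. Cr2 became −0.20 with values raised to background, and Cxcl9 −0.0020 with voom. With a tumour left out, Cd3e ran from −0.21 to 0.21, Cd8a from −0.13 to 0.23, Cxcl1 from −0.12 to 0.35, Cxcl9 from −0.19 to 0.11, Foxp3 from −0.031 to 0.42, Fpr2 from −0.10 to 0.16, Il18 from −0.091 to 0.093, Il18r1 from −0.38 to 0.058, Il1rl1 from −0.26 to 0.0088, Il1rl2 from −0.43 to 0.047, Il1rn from −0.24 to 0.050 and Itgb4 from −0.16 to 0.0075. Of 37 list medians, 33 were below 0 as deposited and 10 after recentring. Low signal limits 128 genes that lay mostly at background.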
